A study of Mus musculus with 12 samples.

Results

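The prostaglandin and leukotriene pathway was followed here through 10 genes, found by their Ensembl identifiers among the 48709 gene rows of a count table of sorted mouse neutrophils. They are Ptgs1 and Ptgs2, which encode the cyclooxygenases, Ptges, which encodes a prostaglandin E synthase, Ptger2 and Ptger4, which encode receptors of prostaglandin E2, Alox5, Alox5ap and Lta4h, which encode proteins that make leukotriene B4, Ltb4r1, which encodes its high-affinity receptor, and Gm19719, an unnamed gene annotated as antisense to Alox5ap. Neutrophils came from the spleens of untreated mice (3 libraries, called control splenic neutrophils below) and from livers taken 24 hours (4 libraries, 24-hour neutrophils) and 72 hours (5 libraries, 72-hour neutrophils) after a single i.p. injection of carbon tetrachloride (CCl4), a hepatotoxin, at 1 mL/kg in corn oil. All mice were male C57BL/6N of 8 to 10 weeks, and cells of every group were enriched with anti-Ly6G beads and then sorted for high Ly6G and intermediate Ly6C among cells with CD11b and CD45. Before these steps liver tissue was minced, digested with enzymes and run on a Percoll gradient, while spleens were only dissociated mechanically and filtered. Control cells came from the spleen and not from an uninjured liver. The organ, its preparation and the injury thus cannot be told apart in a comparison with control cells. Both of the comparisons with spleen use the same 3 spleen libraries. The labels do not say whether the libraries of a group came from separate animals or from pools, so the p-values measure only the spread between these samples, which may be technical.

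Prostaglandins and leukotrienes are short-lived lipid signals made from arachidonic acid, a fatty acid that phospholipases cut from membranes. Cyclooxygenases turn it into prostaglandin H2, from which terminal synthases make the single prostaglandins and thromboxane. The enzyme 5-lipoxygenase, helped by its activating protein in the nuclear membrane, turns it instead into leukotriene A4, which leukotriene A4 hydrolase makes into leukotriene B4, a strong attractant of neutrophils. Neutrophils are known both as a source of leukotriene B4 and as cells that answer it, and they receive prostaglandin E2 through receptors that raise cyclic AMP.

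The results turn on Ptgs2, read beside its constitutive counterpart Ptgs1, and on Alox5 and Lta4h, so the promoters of these genes are shown first. RefSeq (GRCm38.p6) gave a promoter of 300 bases, 250 before and 50 after the annotated start, for 8 of the 10 members. Capitals mark matches, on either strand, to 8 short motifs: the TATA box (letters TATAAA), the C/EBP motif (TTNNGNAA), the cyclic AMP response element or CRE (TGACGTNN), the AP-1 motif (TGANTCA), the E-box (CACGTG), the Sp1 motif (GGGCGG), the ETS motif (GAGGAA) and the NF-kB consensus.
Ptgs2 promoter, chr1:150099781-150100080, plus strand: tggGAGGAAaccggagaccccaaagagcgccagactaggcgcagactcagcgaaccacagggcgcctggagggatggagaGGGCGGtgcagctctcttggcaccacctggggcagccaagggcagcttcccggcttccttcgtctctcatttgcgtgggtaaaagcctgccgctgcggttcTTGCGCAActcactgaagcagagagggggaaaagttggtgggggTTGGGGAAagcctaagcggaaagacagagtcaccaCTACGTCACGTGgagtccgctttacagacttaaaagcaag
Ptgs1 promoter, chr2:36230176-36230475, plus strand: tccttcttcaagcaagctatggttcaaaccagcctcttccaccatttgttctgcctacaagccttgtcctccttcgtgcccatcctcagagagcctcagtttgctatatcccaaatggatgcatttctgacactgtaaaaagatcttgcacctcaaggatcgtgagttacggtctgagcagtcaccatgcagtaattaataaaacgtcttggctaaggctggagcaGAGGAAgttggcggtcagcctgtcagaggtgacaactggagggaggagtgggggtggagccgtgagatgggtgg
Alox5 promoter, chr6:116461129-116461428, minus strand: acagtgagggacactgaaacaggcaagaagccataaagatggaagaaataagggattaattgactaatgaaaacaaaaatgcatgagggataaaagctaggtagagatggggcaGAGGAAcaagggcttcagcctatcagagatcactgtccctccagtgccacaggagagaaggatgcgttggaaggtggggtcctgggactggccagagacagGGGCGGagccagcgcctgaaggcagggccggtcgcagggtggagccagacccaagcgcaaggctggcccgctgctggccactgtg
Lta4h promoter, chr10:93453146-93453445, plus strand: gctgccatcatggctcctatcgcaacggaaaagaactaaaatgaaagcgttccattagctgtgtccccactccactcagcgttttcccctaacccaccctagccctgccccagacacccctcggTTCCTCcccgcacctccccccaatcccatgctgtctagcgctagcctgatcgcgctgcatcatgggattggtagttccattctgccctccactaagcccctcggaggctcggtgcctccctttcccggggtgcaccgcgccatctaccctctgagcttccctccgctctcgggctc

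The Ptgs2 promoter held matches to 5 of the 8 motifs. Positions are counted from the annotated start, which need not be where transcription starts in these cells. A CRE match on the minus strand started 10 bases after the annotated start and shared bases with an E-box match that started 16 bases after it. CRE matches occur in 7.49% and E-box matches in 7.15% of 32851 promoters of this length. The C/EBP matches of Ptgs2 (40.68% of all promoters) started 69 and 25 bases before the start. An Sp1 match (35.66%) and an ETS match (28.28%) lay farther upstream. In Ptgs1 the ETS letters, 24 bases before the start, were the only match. Alox5 held an Sp1 and an ETS match, and Lta4h an ETS match on the minus strand. The NF-kB consensus occurs in 8.46%, the AP-1 motif in 7.81% and the TATA box in 13.62% of promoters, and their letters were not in these 4 windows. These matches describe the letters only.

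Alox5ap and Gm19719 lie at the same locus on opposite strands. Alox5ap (ENSMUSG00000060063.9) runs along chr5:149264767-149288153 of GRCm38 on the plus strand, and Gm19719 (ENSMUSG00000107317.1) along chr5:149282752-149287868 on the minus strand. All 4230 exon bases of Gm19719 fall inside the Alox5ap gene, 4041 of them in its introns and 189 in its exons. Of these, 82 bases at chr5:149285344-149285425 are a whole coding exon, the fourth of 5 in the main Alox5ap transcript, and 107 bases at chr5:149287762-149287868 are in the 3′ UTR. The shared coding exon is shown on both strands, without capitals, because a read from it can be given to either gene only by its strand.
Alox5ap coding exon, plus strand: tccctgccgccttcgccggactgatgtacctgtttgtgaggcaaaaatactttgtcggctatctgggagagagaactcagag
Gm19719, the same bases, minus strand: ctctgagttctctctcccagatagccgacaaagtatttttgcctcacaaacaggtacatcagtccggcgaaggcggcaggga

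Each library had between 1267089 and 3017403 counts on genes, 2.71% to 3.18% of its uniquely aligned reads, while the rest lay almost entirely on no gene. The library kit keeps the strand of the RNA, the strand option given to the counter is not stated in the sources used here, and counts listed under a gene can therefore belong to RNA of its other strand, whether or not a gene is annotated there. This holds for every member, and the counts cannot tell the strands apart. Some libraries stood apart. In 72-hour replicates 2 and 3 the unaligned reads made up 1.91% and 1.98% of all reads, against 49.6% to 50.7% elsewhere, and the summed level of 7 hepatocyte markers reached 19.9 CPM (gene counts scaled to the library size) at 72 hours against at most 0.434 in spleen and 2.16 at 24 hours. All 14 neutrophil markers had counts in some libraries, with a summed CPM of 2959 to 14275 in spleen, 995 to 2612 at 24 hours and 2499 to 3188 at 72 hours. The markers did not move together. Ltf had 3690, 4517 and 647 counts in spleen and 1 to 20 in the liver libraries, and Camp had 366, 484 and 25 against 0 to 3. Counts of Il1r2 and Retnlg in both liver groups overlapped those in spleen. Spleen replicate 3 held 249 counts of S100a8 against 2820 and 3784 in spleen replicates 1 and 2. S100a9, Ly6g, Mmp8, Mmp9, Retnlg, Lcn2, Itgam, Ltf, Camp and Ngp also had fewer counts there than in either of them. Cxcr2 lay between them at 882 counts, and Csf3r and Il1r2 had more, at 1769 and 98. Summed markers of macrophages and Kupffer cells lay at 108 to 180 CPM in spleen, 109 to 162 at 24 hours and 138 to 199 at 72 hours. Most of these counts were under Csf1r, with 154 to 561 per library, then Vsig4 with 5 to 102 and Adgre1 with 9 to 27. Cd5l, Timd4, C1qb, C1qc and Marco had 0 to 6 counts, and Clec4f and C1qa were at 0. Summed markers of platelets never passed 4.34 CPM. Gp9 had 0 to 7 counts per library and Itga2b 0 to 4, while Ppbp was at 0. Summed B cell markers, mostly Cd79a, lay at 52.9 to 63.0 (spleen), 20.2 to 52.6 (24 hours) and 24.8 to 51.3 CPM (72 hours). Those of endothelial cells, mostly Clec4g, lay at 31.5 to 83.6, 25.8 to 43.7 and 42.9 to 74.4 CPM. Those of mast cells, basophils and eosinophils, mostly Siglecf, lay at 11.3 to 14.25, 6.74 to 16.0 and 15.3 to 34.2 CPM. T cell markers reached at most 6.04 CPM.

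All 10 members passed the filter of more than 1 CPM in at least 3 libraries. Levels below are normalized CPM, scaled by TMM factors, and every pair of groups was compared with the quasi-likelihood test of edgeR over the 12488 genes that passed. Calls needed a Benjamini-Hochberg adjusted p under 0.05 and a log2 fold change of 0.5 or more in size. In 24-hour against control splenic neutrophils 4 members were called, Ptgs2 and Gm19719 higher and Alox5 and Lta4h lower, where 9.75% of all genes tested were called (5.35% higher and 4.4% lower). In 72-hour against control splenic neutrophils 2 were called, Ptgs2 higher and Lta4h lower, beside 5.33% of all genes (2.63% higher and 2.71% lower). Between 72-hour and 24-hour neutrophils 2 were called, Ptgs2 higher and Gm19719 lower at 72 hours, beside 4.49% of all genes (1.65% higher and 2.84% lower). Over the members, log2 fold changes had a median of 0.02, -0.14 and -0.34 in the 3 comparisons, against -0.23, -0.02 and 0.18 over all genes tested. In these sorted but bulk samples, fewer cells that express a gene and less of its RNA per cell cannot be told apart.

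**Figure D1:**
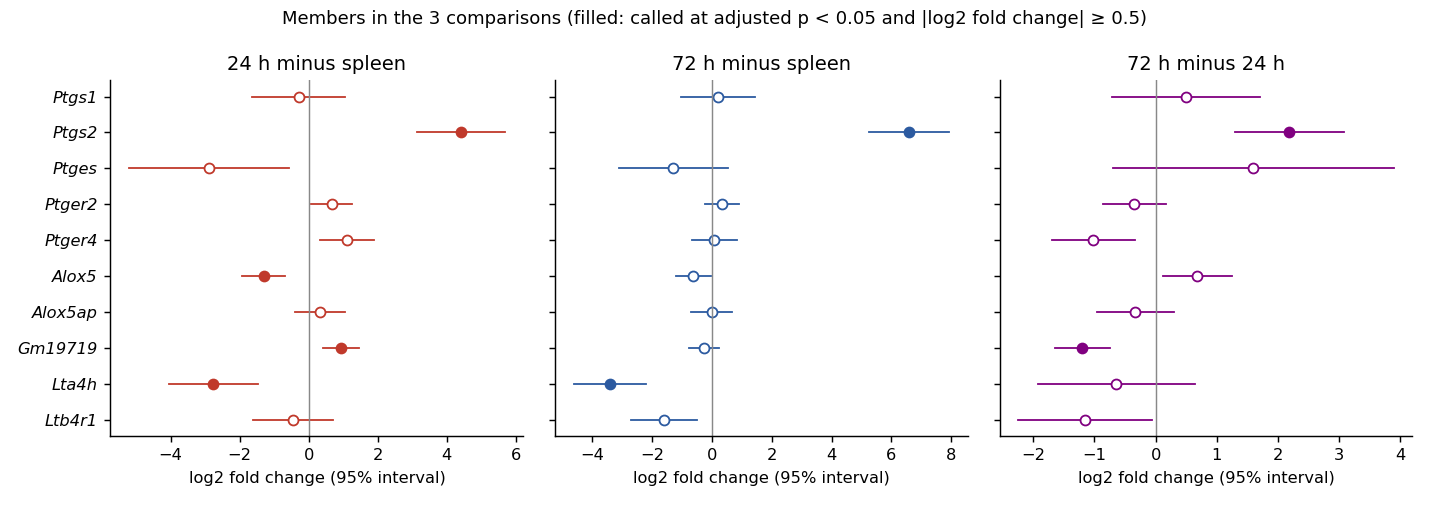
Log2 fold changes of the 10 members with their 95% intervals (edgeR, 12 libraries) in the 3 comparisons, with filled points for called genes, grey lines at no change and a separate x axis for each comparison. Ptgs2 sits at 4.41, 6.59 and 2.19 and Lta4h at -2.76, -3.40 and -0.64, while Gm19719 turns from 0.93 at 24 hours to -1.20 between 24 and 72 hours.

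Ptgs2 (ENSMUSG00000032487.8, chr1:150100031-150108227, plus strand) encodes the inducible cyclooxygenase, known as COX-2. It was at 5.57, 2.17 and 3.86 normalized CPM in the 3 spleen libraries, from 12, 6 and 12 counts. In 24-hour neutrophils it was at 46.0, 37.2, 96.2 and 149, and in 72-hour neutrophils at 259, 505, 739, 158 and 195. Every 24-hour library lay above every spleen library, and every 72-hour library above every 24-hour library. The group means were 3.87 ± 1.70 (SD, n = 3), 82.1 ± 51.5 (SD, n = 4) and 371 ± 246 (SD, n = 5). By edgeR, Ptgs2 rose 21.2-fold at 24 hours (log2 4.41, standard error of the log2 value [SE] 0.61, adjusted p = 8e-05) and 96.7-fold at 72 hours (log2 6.59, SE 0.64, adjusted p = 1.17e-06), both against control splenic neutrophils. No annotated gene shares exon bases with it on the opposite strand, which does not show that the reads counted under Ptgs2 came from its own strand.

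The 72-hour level of Ptgs2 was 4.55-fold that of 24-hour neutrophils (log2 2.19, SE 0.43, adjusted p = 0.00718 by edgeR). The highest of its 72-hour values belonged to replicates 2 and 3, which also had few unaligned reads and held 13 and 33 counts of the hepatocyte gene Alb. Without these 2 libraries the difference between 72 and 24 hours was 1.32 on the log2 scale and no longer passed (adjusted p = 0.0686 by edgeR), whereas the log2 fold change of 72-hour over control splenic neutrophils stayed called at 5.73 (adjusted p = 7.22e-07 by edgeR). With spleen replicate 3 left out as well, the difference between 72 and 24 hours was 1.32 with an edgeR adjusted p of 0.0286. This last setting was chosen after seeing the data, and spleen replicate 3 is not a library of either liver group. Leaving out any single library kept Ptgs2 called in each comparison.

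Ptgs1 (ENSMUSG00000047250.13, chr2:36230426-36252272, plus strand) encodes the constitutive cyclooxygenase, COX-1, which is best known from platelets and the stomach lining. It was at 7.89, 2.54 and 5.47 normalized CPM in spleen, at 1.89, 6.60, 4.24 and 4.38 at 24 hours, and at 10.3, 2.76, 10.5, 4.17 and 1.95 at 72 hours. The 3 groups overlapped throughout. No difference passed the test: the log2 fold change was -0.29 (95% interval -1.64 to 1.06, adjusted p = 0.822 by edgeR) at 24 hours and 0.21 (-1.03 to 1.44, adjusted p = 0.927) at 72 hours, and these intervals leave room for changes of more than 1 log2 unit either way. Ptgs1 rested on 3 to 34 counts per library. It shares 148 exon bases with Gm43621 on the opposite strand, a row with 213 to 687 counts.

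The ratio of the inducible to the constitutive cyclooxygenase gene within a library does not depend on the scaling between libraries. Ptgs2 had 0.706, 0.857 and 0.706 counts for each count of Ptgs1 in spleen. In 24-hour neutrophils it had 24.3, 5.64, 22.7 and 34.0, and in 72-hour neutrophils 25.2, 183, 70.2, 37.8 and 100.3. Ptgs1 was thus counted more often than Ptgs2 in every spleen library and less often in every liver library, and the 24-hour and 72-hour ranges overlapped. On the log2 scale with 0.5 added to each count, the ratio averaged -0.39 ± 0.16 (SD, n = 3), 4.05 ± 1.11 (SD, n = 4) and 5.94 ± 1.11 (SD, n = 5). Exact two-sided permutation tests gave p = 0.0286 for 24-hour against control splenic neutrophils, the smallest of 35 assignments, and p = 0.0179 for 72-hour neutrophils, the smallest of 56. Between 72 and 24 hours the difference was 1.89 (exact permutation p = 0.0317), and all 3 were at 0.0317 after adjustment over the 3 pairs. In this exact permutation test the last difference was 1.34 with an adjusted p of 0.143 without 72-hour replicates 2 and 3. Leaving out single libraries kept each direction but lost adjusted calls. It leaves fewer assignments in the comparisons that use the library, and in the others can change only the adjustment over the 3 pairs. Both differences from spleen were lost without any 1 of the 7 spleen and 24-hour libraries (adjusted exact permutation p up to 0.1 at 24 hours and 0.0667 at 72 hours), and that between 72 and 24 hours without any 1 of 11 libraries, all but 72-hour replicate 1 (up to 0.1).

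**Figure D2:**
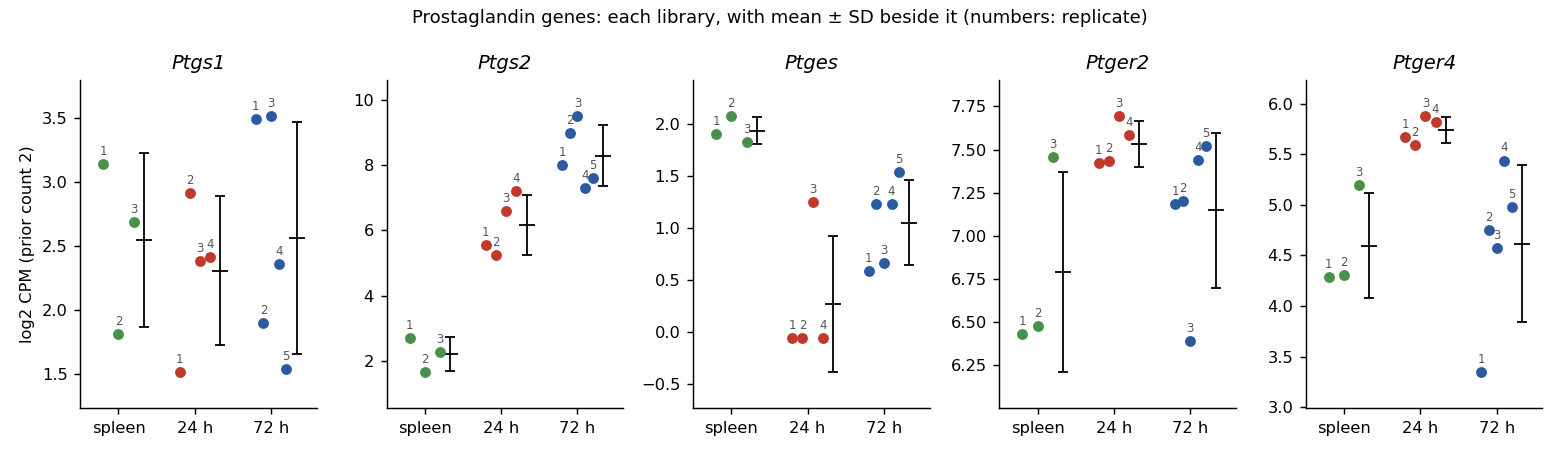
Log2 normalized CPM (prior count of 2) of Ptgs1, Ptgs2, Ptges, Ptger2 and Ptger4 in each library of the 3 groups, with replicate numbers and the mean ± SD beside the points; each panel has its own y axis. The Ptgs2 groups do not overlap, the Ptgs1 groups overlap throughout, and the 24-hour libraries of Ptger4 lie above all others.

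Ptges (ENSMUSG00000050737.13, chr2:30889471-30929863, minus strand) encodes the microsomal prostaglandin E synthase that is known to work together with COX-2. It was the least counted member, at 6, 9 and 8 counts in spleen, 0, 0, 2 and 0 at 24 hours and 1, 4, 2, 2 and 3 at 72 hours. In normalized CPM these are 2.78, 3.26 and 2.57 in spleen, 1.41 in 24-hour replicate 3 with the other three at 0, and 0.542, 1.38, 0.619, 1.39 and 1.95 at 72 hours. Both liver groups lay below the spleen group without overlap. Neither difference passed, with log2 values of -2.88 at 24 hours (SE 1.12, adjusted p = 0.104 by edgeR) and -1.29 at 72 hours (adjusted p = 0.518 by edgeR). The 2 counts of the 24-hour group put its summed level at 0.116 of that in spleen, with an exact interval of 0.0132 to 0.468 for counting error only. The call at 24 hours depended on the test and on a single library: limma-voom called it (log2 -2.62, adjusted p = 0.0284), and so did edgeR without 24-hour replicate 3 (adjusted p = 0.0316). Between 72 and 24 hours the ratio of counts per depth was 3.31, with a counting interval of 0.736 to 30.4 that includes no change.

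Ptger2 (ENSMUSG00000037759.5, chr14:44988195-45003820, plus strand) encodes the EP2 receptor, which couples prostaglandin E2 to cyclic AMP. Its level was 85.4, 88.1 and 175 normalized CPM in spleen, 170, 172, 206 and 191 at 24 hours, and 144, 146, 82.9, 172 and 183 at 72 hours. Spleen replicate 3 lay at the level of the liver libraries and apart from the other 2 spleen libraries. With all libraries Ptger2 was not called, at a log2 fold change of 0.67 (SE 0.29, adjusted p = 0.143 by edgeR) at 24 hours and 0.32 (adjusted p = 0.634 by edgeR) at 72 hours. Without spleen replicate 3 it was called higher at 24 hours (log2 1.09, adjusted p = 0.0172 by edgeR). Without that library and 72-hour replicates 2 and 3, a setting chosen after seeing the data, it was also called at 72 hours (log2 0.95, adjusted p = 0.0271 by edgeR). On the opposite strand Gm17173, with 0 to 13 counts, shares 246 exon bases, and Gm49364, which shares 144, was not analysed here.

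Ptger4 (ENSMUSG00000039942.15, chr15:5206661-5244187, minus strand) encodes EP4, the other receptor that raises cyclic AMP. It was at 18.6, 18.8 and 35.7 normalized CPM in spleen, 49.8, 47.4, 58.0 and 55.4 at 24 hours, and 9.22, 25.9, 22.9, 42.4 and 30.5 at 72 hours. All 24-hour libraries lay above all libraries of the other groups, which overlapped each other. The differences missed the threshold, at a log2 fold change of 1.10 (SE 0.38, adjusted p = 0.0677 by edgeR) for 24-hour against control splenic neutrophils and -1.02 (SE 0.33, adjusted p = 0.0758 by edgeR) for 72-hour against 24-hour neutrophils. The comparison of 72-hour with control splenic neutrophils gave 0.08 (adjusted p = 0.956 by edgeR). The 24-hour difference was called by edgeR without spleen replicate 3 (log2 1.49, adjusted p = 0.0243), without 72-hour replicate 1 (adjusted p = 0.0367) and without 72-hour replicate 4 (adjusted p = 0.0495), by edgeR with upper-quartile scaling (0.0467), with no filter (0.0345) and with a fit of only those 2 groups (0.0343), and by the Wald test of DESeq2 (adjusted p = 0.0362). It was not called by edgeR with DESeq2's size factors (adjusted p = 0.0608), filterByExpr (0.0633) or the replicate block (0.0706), nor by limma-voom (0.0571). The difference between 72 and 24 hours was called by edgeR without spleen replicate 3 (adjusted p = 0.0455) and without 72-hour replicate 4 (log2 -1.25, adjusted p = 0.033), with no filter (0.0288) and with the replicate block (0.0284), by the Wald test of DESeq2 (0.0338) and by limma-voom (0.0498). Its overlapping genes on the other strand, Ttc33 with 82 and Gm15937 with 1015 shared exon bases, had 0 to 16 and 0 to 2 counts.

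Alox5 (ENSMUSG00000025701.12, chr6:116410077-116461178, minus strand) encodes 5-lipoxygenase, the first enzyme of leukotriene synthesis. Control splenic neutrophils had 76.1, 68.5 and 44.4 normalized CPM, 24-hour neutrophils 28.4, 32.4, 23.3 and 17.5, and 72-hour neutrophils 28.7, 44.6, 37.1, 52.1 and 42.8. The 24-hour libraries all lay below the spleen libraries, and the 72-hour libraries spread from the 24-hour range into the spleen range. Alox5 fell by 1.30 on the log2 scale at 24 hours (SE 0.30, adjusted p = 0.00773 by edgeR), from a mean of 63.0 ± 16.6 (SD, n = 3) to 25.4 ± 6.44 (SD, n = 4). The call was lost without spleen replicate 1 (log2 -1.14, adjusted p = 0.0562 by edgeR). In 72-hour neutrophils its mean was 41.1 ± 8.73 (SD, n = 5), and neither the difference from spleen (log2 -0.62, adjusted p = 0.247 by edgeR) nor that from 24 hours (log2 0.68, adjusted p = 0.155 by edgeR) passed.

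Alox5ap encodes the 5-lipoxygenase activating protein, known as FLAP, which presents arachidonic acid to the enzyme. It was at 83.0, 103 and 67.8 normalized CPM in spleen, 143, 162, 55.2 and 61.3 at 24 hours, and 69.9, 61.1, 72.7, 84.1 and 133 at 72 hours. The groups overlapped, and the 24-hour libraries split into replicates 1 and 2 above, and replicates 3 and 4 below, all spleen libraries. No comparison passed, with log2 values of 0.32 at 24 hours (adjusted p = 0.601 by edgeR), -0.01 at 72 hours (adjusted p = 0.997) and -0.33 between 72 and 24 hours (adjusted p = 0.573).

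Gm19719, on the other strand of the same locus, was among the most counted genes of the table, seventh by total count, and took 0.956% to 2.57% of the gene counts of each library. It was at 14536, 15653 and 8200 normalized CPM in spleen, 32656, 29173, 18285 and 17642 at 24 hours, and 9358, 9584, 9139, 10583 and 14666 at 72 hours. The 24-hour libraries lay above all others, and the 72-hour libraries overlapped the spleen range. The 24-hour level exceeded that of control splenic neutrophils by 0.93 log2 units (SE 0.26, adjusted p = 0.0232 by edgeR), and the 72-hour level was lower than the 24-hour level, with a log2 fold change of -1.20 (SE 0.22, adjusted p = 0.00414 by edgeR). Between control splenic and 72-hour neutrophils no difference passed the test (log2 -0.26, adjusted p = 0.665 by edgeR). The first of these calls was lost without spleen replicate 1 (adjusted p = 0.0529 by edgeR), spleen replicate 3 (log2 0.69, adjusted p = 0.0831), 24-hour replicate 1 (adjusted p = 0.0807) or 24-hour replicate 2 (adjusted p = 0.0672), while the fall from 24 to 72 hours held in each of these and without 72-hour replicates 2 and 3 (log2 -1.08, adjusted p = 0.0316 by edgeR).

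Read together, the genes of the locus were counted at very different levels. Gm19719 had 175, 153 and 121 counts for each count of Alox5ap in spleen, 229, 180, 332 and 288 at 24 hours, and 134, 157, 126, 126 and 110 at 72 hours. The ratio was thus higher in every 24-hour library than in any other, and the spleen and 72-hour ranges overlapped. On the log2 scale it averaged 7.20 ± 0.27 (SD, n = 3), 7.96 ± 0.38 (SD, n = 4) and 7.01 ± 0.18 (SD, n = 5). It was lower at 72 than at 24 hours by an exact two-sided permutation test (difference -0.95, p = 0.00794, the smallest of 126 assignments, 0.0238 after adjustment over 3 pairs). The adjusted call was lost without any 1 of the 9 liver libraries, which leaves fewer assignments (adjusted exact permutation p of 0.0536 to 0.0857), with the difference at -1.11 to -0.82. Against spleen the difference was 0.76 at 24 hours (exact permutation p = 0.0571, adjusted 0.0857) and -0.19 at 72 hours (exact permutation p = 0.286), with 0.0286 and 0.0179 as the smallest p these sizes allow. Since most Gm19719 bases lie in Alox5ap introns and 189 in its exons, and the strand option of the counting is not known, RNA of the Alox5ap strand and RNA of the Gm19719 strand cannot be told apart in these counts.

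**Figure D3:**
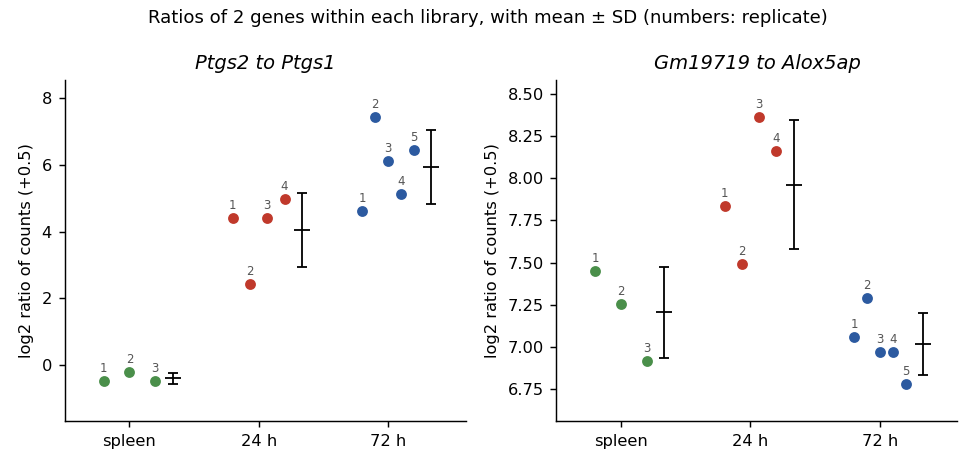
Log2 ratio of counts, with 0.5 added to each, of Ptgs2 to Ptgs1 (left) and of Gm19719 to Alox5ap (right) in each library, with replicate numbers and the mean ± SD; the y axes differ. The first ratio lies below 0 in the spleen libraries and between 2.44 and 7.43 in the liver libraries, and the second is highest in the 24-hour libraries, from 7.49 to 8.36.

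Lta4h (ENSMUSG00000015889.7, chr10:93453411-93484875, plus strand) encodes leukotriene A4 hydrolase, the last step to leukotriene B4. It was at 69.6, 69.6 and 12.2 normalized CPM in spleen, 11.4, 6.60, 9.90 and 1.46 at 24 hours, and 3.80, 1.04, 3.10, 11.8 and 5.84 at 72 hours. Every liver library lay below every spleen library, although spleen replicate 3 was close to the highest of them. Lta4h rested on 38 to 192 counts per library in spleen, but on only 2 to 18 at 24 hours and 3 to 17 at 72 hours. Lta4h fell by 2.76 on the log2 scale at 24 hours (SE 0.62, adjusted p = 0.00602 by edgeR) and by 3.40 at 72 hours (SE 0.59, adjusted p = 0.000758 by edgeR), and the difference between the liver groups did not pass (log2 -0.64, adjusted p = 0.593 by edgeR). Both calls held when any single library was left out, with adjusted p up to 0.041 at 24 hours and 0.00977 at 72 hours. Without spleen replicate 3 the log2 fold changes were -3.23 and -3.88. That library was also the spleen library low in S100a8, though not in Csf3r. The summed neutrophil markers, at 2959 to 14275 CPM in spleen, were lower in 24-hour neutrophils (995 to 2612 CPM) and lay at 2499 to 3188 CPM in 72-hour neutrophils. The single markers in this sum did not move together, as the counts of Ltf and Il1r2 show. The part of these markers in the lower Alox5 and Lta4h levels was not tested.

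Ltb4r1 (ENSMUSG00000046908.5, chr14:55765962-55768494, plus strand) encodes BLT1, the receptor by which neutrophils follow leukotriene B4. It was at 16.7, 13.0 and 4.18 normalized CPM in spleen, 17.0, 6.00, 6.36 and 2.92 at 24 hours, and 4.34, 2.76, 4.33, 2.78 and 3.89 at 72 hours. The 72-hour libraries were close together at the lower end, where spleen replicate 3 and 24-hour replicate 4 also lay. Ltb4r1 was not called in any comparison with all libraries, at a log2 fold change of -0.46 at 24 hours (adjusted p = 0.644 by edgeR), -1.61 at 72 hours (SE 0.54, adjusted p = 0.0885 by edgeR) and -1.15 between them (adjusted p = 0.214 by edgeR). Without spleen replicate 3 the 72-hour difference was called, at -2.01 (adjusted p = 0.0218 by edgeR), as it was with no filter on low counts (log2 -1.62, adjusted p = 0.0492 by edgeR). The gene had 4 to 36 counts per library.

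**Figure D4:**
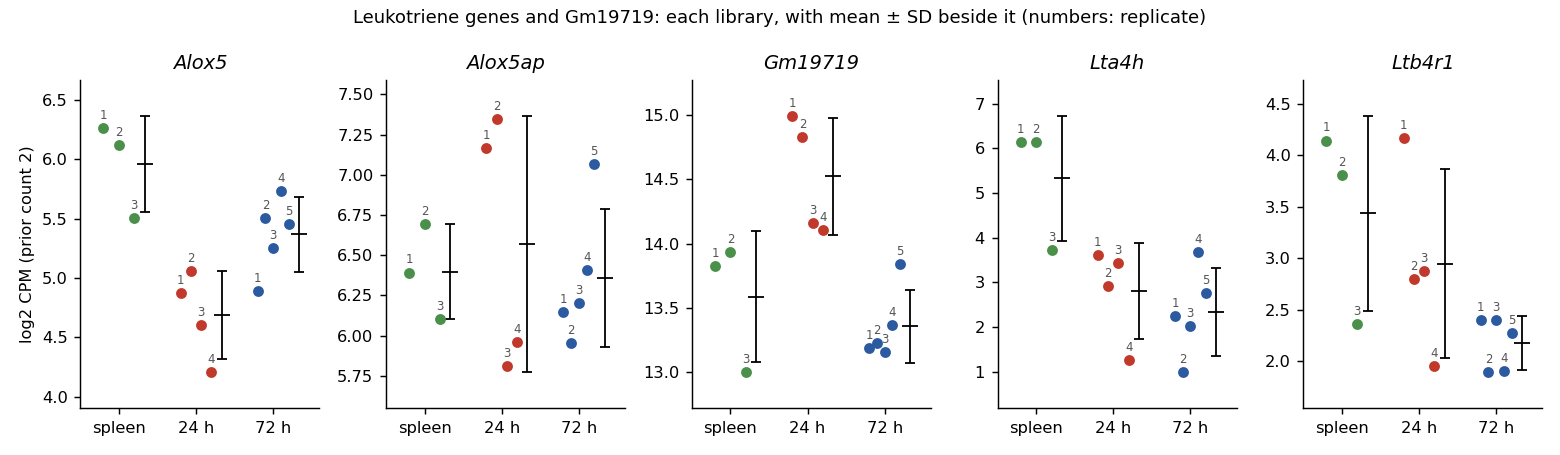
Log2 normalized CPM (prior count of 2) of Alox5, Alox5ap, Gm19719, Lta4h and Ltb4r1 in each library of the 3 groups, with replicate numbers and the mean ± SD beside the points; each panel has its own y axis. Alox5 is lowest and Gm19719 highest in 24-hour neutrophils, Lta4h lies lower in both liver groups, and spleen replicate 3 is the lowest spleen library in all 5 panels.

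Groups that do not overlap are common in these data. Of the members, 3 lay wholly above and 3 wholly below spleen at 24 hours, where 9.76% of all genes tested lay wholly above and 13% wholly below (22.8% in all). At 72 hours 1 lay above and 2 below spleen, beside 5.59% and 6.37% of all genes (12% in all). Between 72 and 24 hours 1 lay above and 2 below, beside 4.49% and 5.02% (9.51% in all). At 24 hours those above were Ptgs2, Ptger4 and Gm19719, and those below were Ptges, Alox5 and Lta4h.

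Levels were also set per kilobase of exon, with the exons of all annotated transcripts of a gene joined. That length need not be the length of the RNA expressed, so the order depends on the annotation. On this scale the counts listed under Gm19719 were the highest of the members in every group, with a mean ± SD of 3025 ± 950.2 normalized CPM per kb in spleen, 5778 ± 1801 at 24 hours and 2522 ± 545 at 72 hours. The strands cannot be told apart in the counts of any member, Gm19719 and Alox5ap included. Each place in the order is therefore that of the listed name and not of a known transcript. In control splenic neutrophils Alox5ap followed at 59.5 ± 12.3, then Ptger2 at 22.3 ± 9.77 and Alox5 at 15.3 ± 4.03, and these last values lay within their SDs of each other. Lta4h at 8.27 ± 5.43 and Ltb4r1 at 8.11 ± 4.62 could not be ordered, nor could Ptgs1 at 1.36 ± 0.690, Ptgs2 at 0.844 ± 0.370 and Ptges at 0.731 ± 0.0899. In 24-hour neutrophils Alox5ap stood at 74.1 ± 38.7, Ptger2 at 35.6 ± 3.33 and Ptgs2 at 17.9 ± 11.3, while Lta4h at 1.20 ± 0.719 was at the level of Ptgs1 at 1.10 ± 0.495. In 72-hour neutrophils Ptgs2, at 81.1 ± 53.8 normalized CPM per kb, was within its spread of Alox5ap at 59.3 ± 20.1, and Lta4h, at 0.838 ± 0.675, was below every other protein-coding member except Ptges at 0.299 ± 0.150, with Ptgs1 at 1.53 ± 1.07 within its spread.

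The wider eicosanoid pathway was read through a list of 72 genes that holds the members, of which 42 passed the filter. In 24-hour against control splenic neutrophils 5 were called higher and 2 lower, 16.7% of the list beside 9.75% of all genes tested. In 72-hour against control splenic neutrophils 2 were called higher and 1 lower (7.14% beside 5.33%), and between 72 and 24 hours 3 higher and 2 lower (11.9% beside 4.49%). Without the members, which were chosen with results known, the list had 3 of 32, 1 of 32 and 3 of 32 genes called, 9.38%, 3.12% and 9.38%. The list had a median log2 fold change of 0.05, 0.13 and 0.25, against -0.23, -0.02 and 0.18 over all genes. By role, 1 of 5 tested phospholipases, 1 of 2 cyclooxygenases, 1 of 6 prostanoid synthases, 3 of 9 leukotriene synthesis genes and 1 of 3 antisense-named genes were called at 24 hours, beside 9.75% of all genes. edgeR called none of the 7 prostanoid receptors, 3 genes of prostaglandin transport and breakdown, 2 of leukotriene breakdown, 4 leukotriene and lipid mediator receptors and 1 other lipoxygenase or epoxide hydrolase gene tested. Of these 17 genes 4 had an unadjusted p under 0.05 by edgeR, DESeq2 called 1 (Ptger4) and limma-voom called 0.

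Among the genes that act beside the members, Tbxas1, which encodes thromboxane A synthase, was called at 24 hours. Its normalized CPM was 12.5, 14.5 and 21.2 in spleen, 34.1, 34.8, 60.1 and 53.3 at 24 hours, and 46.6, 61.8, 42.4, 18.8 and 18.8 at 72 hours. The 24-hour libraries lay above spleen (log2 1.49, SE 0.40, adjusted p = 0.0208 by edgeR), and the 72-hour libraries spread from the spleen range to above that of 24 hours (log2 1.24 over spleen, adjusted p = 0.0663 by edgeR). Pla2g15, a lysosomal phospholipase, was also called at 24 hours, from 3 to 6 counts per spleen library to 5 to 18 (log2 2.18, SE 0.68, adjusted p = 0.0461 by edgeR). Dpep2, a dipeptidase that trims cysteinyl leukotrienes, had 1 count in all spleen libraries together and 22 in the 24-hour libraries, a ratio of 29.2 with a counting interval of 4.73 to 1207 (adjusted p = 0.0409 by edgeR). On the opposite strand it shares 474 exon bases with Gm45752, which had 14, 8 and 6 counts in spleen and 793, 1043, 195 and 340 at 24 hours. It shares 150 with Dus2, at 1, 1 and 3 counts in spleen and 31, 25, 3 and 17 at 24 hours. RNA of the Dpep2 strand and of the other strand cannot be told apart in these counts.

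Cyp4f18 and Ggt1, which break down or trim leukotrienes, differed between the liver groups. Cyp4f18, which encodes the neutrophil omega-hydroxylase of leukotriene B4, was at 26.0, 26.5 and 25.1 normalized CPM in spleen, 13.9, 15.0, 15.6 and 19.0 at 24 hours, and 40.1, 31.4, 40.9, 28.5 and 43.5 at 72 hours. The 3 groups did not overlap, and the 72-hour level was higher than the 24-hour level (log2 1.22, SE 0.27, adjusted p = 0.013 by edgeR). Cyp4f18 shares 181 exon bases with Zfp961, which had 3615 to 7602 counts. Ggt1, a gamma-glutamyl transferase that cuts leukotriene C4, went the other way, with 3.71, 6.52 and 1.29 normalized CPM in spleen, 9.46, 18.6, 4.24 and 7.29 at 24 hours and 1.08, 0.691, 0.619, 1.39 and 2.60 at 72 hours (log2 -3.03, SE 0.63, adjusted p = 0.00942 by edgeR).

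**Figure D5:**
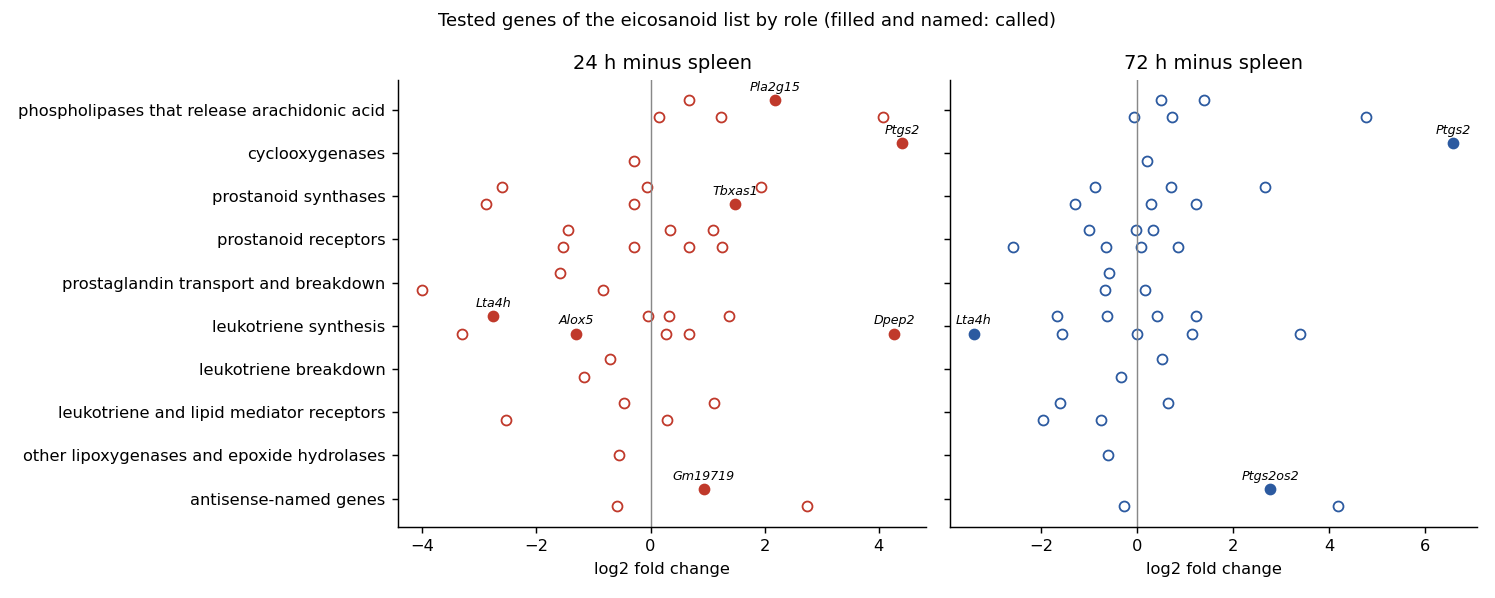
Log2 fold change of the 42 tested genes of the eicosanoid list by role, for 24-hour (left) and 72-hour (right) against control splenic neutrophils, with called genes filled and named. Ptgs2 lies farthest from 0 at 72 hours, at 6.59, and Lta4h is the lowest called gene in both comparisons.

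Ptgs2os2, a long noncoding gene on the minus strand at chr1:150159043-150164948, near but not overlapping Ptgs2, was at 0.362 to 2.32 normalized CPM in spleen, 0 to 1.46 at 24 hours, and 4.34, 6.56, 17.3, 2.08 and 5.84 at 72 hours. The 72-hour libraries lay above all 24-hour libraries (log2 3.37, adjusted p = 0.0247 by edgeR) and overlapped the spleen libraries (log2 2.77, adjusted p = 0.0453 by edgeR), and replicate 3 was the highest for Ptgs2os2 as for Ptgs2. Ptgs2os, which starts beside the Ptgs2 start and runs away from it on the minus strand, was at 0 in every spleen library, was between 0 and 2.71 normalized CPM in the liver libraries, and was not called.

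The genes whose pattern over the 12 libraries was most like that of Ptgs2, by the root mean square difference of centred log2 CPM, were B430119L08Rik (0.819), Nr4a1 (0.900) and Plk3 (0.940), against a median of 2.61 over all genes tested. Nr4a1, an early response transcription factor, had a mean ± SD of 7.34 ± 2.57 normalized CPM in spleen, 67.3 ± 52.3 at 24 hours and 185 ± 142 at 72 hours. Plk3, a stress-responsive kinase, averaged 3.71 ± 2.60, 55.2 ± 24.0 and 115 ± 65.2 in the same order. Most like Gm19719 were Fbxl5 (0.203), which encodes an iron-sensing F-box protein, Gm13066 (0.213) and 4731419I09Rik (0.239), against a median of 0.948. The mean ± SD of Fbxl5 was 764 ± 234, 1684 ± 482 and 890.1 ± 197 normalized CPM in spleen, at 24 hours and at 72 hours.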

How the data were processed

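RNA of sorted neutrophils was sequenced in 12 libraries (3 spleen, 4 liver at 24 hours and 5 liver at 72 hours). The authors deposited raw counts per gene from HTSeq-count in 1 table, without normalization; the submitters' processing notes name GRCm38 and STAR 2.7.9a. The 5 summary rows were not used as genes; 96.79% to 97.27% of uniquely aligned reads had no gene. Of 48709 gene identifiers, 48349 matched the GRCm38 annotation.

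Counts were tested in R 4.3.3 with edgeR 4.0.16 (more than 1 CPM in at least 3 samples, TMM, quasi-likelihood test in 1 fit of the 12 libraries, Benjamini-Hochberg adjustment over 12488 genes). Log2 CPM use a prior count of 2. Ratios of genes were compared by exact permutation tests. The alternatives were DESeq2 1.42.0 (size factors and Wald test), limma-voom 3.58.1, upper-quartile scaling, no filter, filterByExpr, fits of 2 groups, a replicate block, Alox5ap and Gm19719 summed, and leaving out libraries. The script was tested on simulated data. At these depths 1 CPM is 1 to 3 counts. Counting intervals are exact 95% intervals that cover counting error only. The counts of every pair of replicates differed by more than sampling noise, at a chi-square per degree of freedom of 2.47 to 41.3. Spleen replicates 1 and 2 were at 2.47, and replicate 3 was at 37.5 and 41.3 from them. 24-hour replicates 1 and 2 were at 8.87, and other 24-hour pairs at 20.1 to 32.9. 72-hour replicates 4 and 5 were at 6.72, replicates 1, 2 and 3 at 8.48 to 12.9 from each other, and pairs across these sets at 20.7 to 38.1. The cause of these sets was not tested.

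The members and lists were chosen with earlier results of these data known. Named genes are the members, the genes on their opposite strand, called genes of the eicosanoid list and the 3 genes nearest in pattern to Ptgs2 and to Gm19719. Ptgs2os, Alb and the other single cell type markers, S100a8 among them, were named after their values were seen. A looser form of the NF-kB motif was replaced by the consensus after its matches were seen.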

Additional observations from a re-analysis of the deposited data

Results flagged for a closer look

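In 20 groups of 4 or 5 values tested for a lone extreme sample with Dixon's criterion, which chance alone meets in about 1 group in 20, 2 stood out. Gm19719 reached 14666 normalized CPM in 72-hour replicate 5, against 9139 to 10583 in the other 72-hour libraries. Ptges was at 1.41 normalized CPM, from 2 counts, in 24-hour replicate 3 and at 0 in the other 24-hour libraries.

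The effects at the 2 times after injury differed for 2 members and both ratios. Ptgs2 differed between 72 and 24 hours by 2.19 on the log2 scale (edgeR adjusted p = 0.00718), and by 1.32 (edgeR adjusted p = 0.0686) without 72-hour replicates 2 and 3. Gm19719 differed by -1.20 (edgeR adjusted p = 0.00414). The log2 ratio of Gm19719 to Alox5ap differed by -0.95 (exact permutation p = 0.00794) and that of Ptgs2 to Ptgs1 by 1.89 (exact permutation p = 0.0317); the adjusted calls of these ratios were lost without any 1 of 9 and of 11 libraries.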

How the results depend on the processing

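The number of members called stayed within 1.5 times under other scalings, tests and filters in all 3 comparisons (4 to 5 at 24 hours, 2 to 3 in the other two), except that 1 member was called between 72 and 24 hours without 72-hour replicates 2 and 3. Leaving out each library gave 2 to 5, 2 to 3 and 2 to 3 called members, with 2 at 24 hours without spleen replicate 1. Without 72-hour replicates 2 and 3 the exact permutation tests no longer passed. The log2 ratio of Gm19719 to Alox5ap differed by -1.03 between 72 and 24 hours (adjusted exact permutation p = 0.0857). That of Ptgs2 to Ptgs1 differed by 4.44 (0.0857), 5.78 (0.143) and 1.34 (0.143) in the 3 comparisons. Comparisons with 72-hour libraries then have fewer assignments, while for 24 hours against spleen only the adjustment changed. Leaving out single libraries also leaves fewer assignments in the comparisons that use the library, and in the others can change only the adjustment. Between 72 and 24 hours it gave -1.11 to -0.82 for the first ratio, which no longer passed in 9 of 12 cases (adjusted exact permutation p up to 0.0857). Against spleen the first ratio gave 0.61 to 0.92 and -0.34 to -0.07. The second ratio gave 4.13 to 4.98, 5.96 to 6.67 and 1.36 to 2.22. It no longer passed in 7, 7 and 11 of 12 cases (adjusted exact permutation p up to 0.1, 0.0667 and 0.1). Differences near 0 changed sign: Ptger4 at 72 hours against spleen was -0.028 under limma-voom and -0.18 with the replicate block, and -0.15 to 0.47 over single libraries; Alox5ap at 72 hours was 0.18 without 72-hour replicates 2 and 3, 0.0495 without spleen replicate 3 as well (chosen after seeing the data) and -0.23 to 0.15 over single libraries; Ptgs1 was -0.62 to 0.091 at 24 hours and -0.14 to 0.58 at 72 hours. The cause of these changes was not tested. Summing Alox5ap with Gm19719 left no separate value for Alox5ap. The replicate numbers did not pair the samples (correlations of 10 same-numbered pairs from -0.12 to 0.13, with 2 of 11 libraries closest to their own number); the block called 4, 2 and 3 members, adding Ptger4 between 72 and 24 hours (log2 -1.20, edgeR adjusted p = 0.0284). Depth limits Ptges, Ptgs1 and Ltb4r1 most, since they rest on 0 to 36 counts per library. It also limits Lta4h in the liver groups, at 2 to 18 counts per library at 24 hours and 3 to 17 at 72 hours.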
